A study of Mus musculus with 12 samples.

Results

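The comparison described here sets 3 libraries of F4/80-positive cells from uteri with intrauterine adhesion (IUA) treated with primed mesenchymal stromal cells (MSC) against 3 libraries from sham-operated uteri. It was made over every gene with an FPKM (fragments scaled to transcript length and library total) of at least 1 in at least 3 of the 12 libraries of the study, which kept 11604 of the 22294 genes in the table. The study has 4 mouse groups of 3 libraries each: Sham, IUA, IUA with control MSC, and IUA with MSC primed by inflammatory cytokines. Sham is also called untreated in the labels. The IUA libraries carry the name Matrigel in their titles, which do not say what part Matrigel had in the model. The MSC were human, from umbilical cord. Endometrial tissue was digested with trypsin and then collagenase, red cells were lysed, and F4/80-positive cells were taken on magnetic beads before polyA RNA sequencing. Strain, age, cell dose, interval after treatment and any pooling of animals are not given in the sources used here, so p-values measure the spread between these libraries, which may be technical in part. Because the IUA surgery separates both MSC groups from Sham, the effect of primed MSC and that of the injury they were given for cannot be told apart in the comparison with Sham alone. For that reason the medians of the gene lists, and the values of many of the genes named, are given for IUA and control MSC as well.

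Macrophages of the uterus are resident cells that are joined by blood monocytes after injury. Monocytes that enter a damaged tissue pass through inflammatory states, with secreted cytokines, chemokines and acute phase proteins, and through repair states, with arginase, growth factors and matrix-degrading enzymes. Intrauterine adhesion is scarring of the endometrium, and MSC are given for their secreted signals to immune and stromal cells.

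Primed MSC and Sham libraries differed at most genes tested. With limma on log2(FPKM + 1) and Benjamini-Hochberg adjusted p under 0.05, 6903 genes passed (59.5%), of which 1684 were higher after primed MSC (14.5%) and 5219 were lower (45%). A log2 change of at least 1 was reached by 624 higher genes (5.38%) and 2068 lower genes (17.8%). The 3 primed and 3 Sham libraries did not overlap at 2030 genes that were higher (17.5%) and 5869 that were lower (50.6%). The median log2 change over all tested genes was -0.33, so the split by direction depends on how libraries are scaled: higher genes were 24.4% of those called as deposited, 52.7% after median-ratio scaling (3240 higher and 2913 lower, median 0.03), 50.6% after quantile normalization and 51.2% after a GC correction that also centres each library. All log2 changes below are from the deposited scale, and each list is to be read against the median of -0.33 and the shares of 14.5% higher and 45% lower. Where list medians are given for 3 groups, those of IUA and control MSC are also against Sham and share its libraries. Over all tested genes these 2 medians were -0.35 and -0.30.

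**Figure D1:**
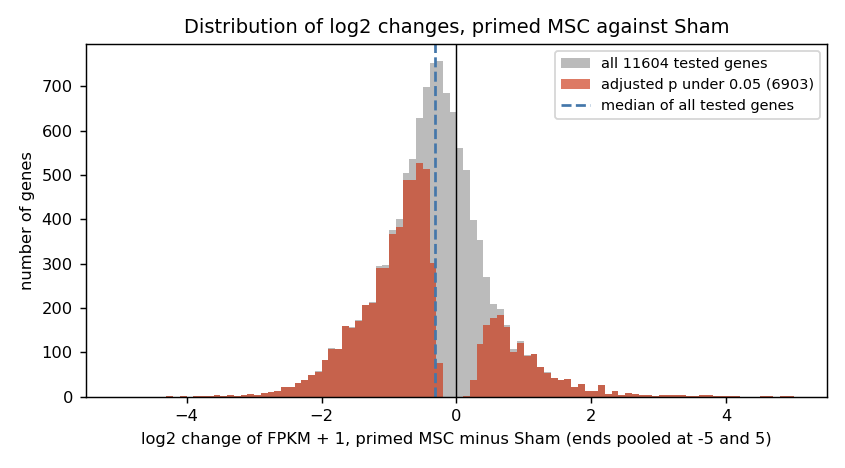
Number of genes (vertical axis) by log2 change of FPKM + 1, primed MSC minus Sham (horizontal axis), for all 11604 tested genes in grey and for the 6903 genes that passed in red; changes beyond 5 are pooled in the end bars. The dashed median of -0.33 lies to the left of 0, and more of the red area lies below 0 (5219 genes) than above it (1684 genes).

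Sham libraries stood apart from the 9 others, and they did so in the sums of some cell type marker lists too. The first principal component held 63.4% of the variance; Sham libraries lay at -71.6 to -61.3 on it and the 9 others at 2.86 or higher. Summed FPKM of 20 uterine epithelial genes was 8428 to 14622 in Sham and 1879 to 3713 after primed MSC. The sum of 22 macrophage genes was 15026 to 18369 in Sham and 42439 to 45841 after primed MSC. Other lists did not set Sham apart from every injured library. Endometrial stroma sums were 742 to 1183 in Sham and 533 to 1167 in IUA. Those of T and NK cell markers were 46.8 to 83.3 in Sham, 33.4 to 51.1 in IUA and 13.2 to 58.4 with control MSC. Mitochondrially encoded genes held 3.64% to 3.83% of summed FPKM in Sham and 1.92% to 2.22% after primed MSC. In bulk RNA, fewer cells of a type and less RNA per cell cannot be told apart, and the part that these shifts have in the results below was not tested.

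**Figure D2:**
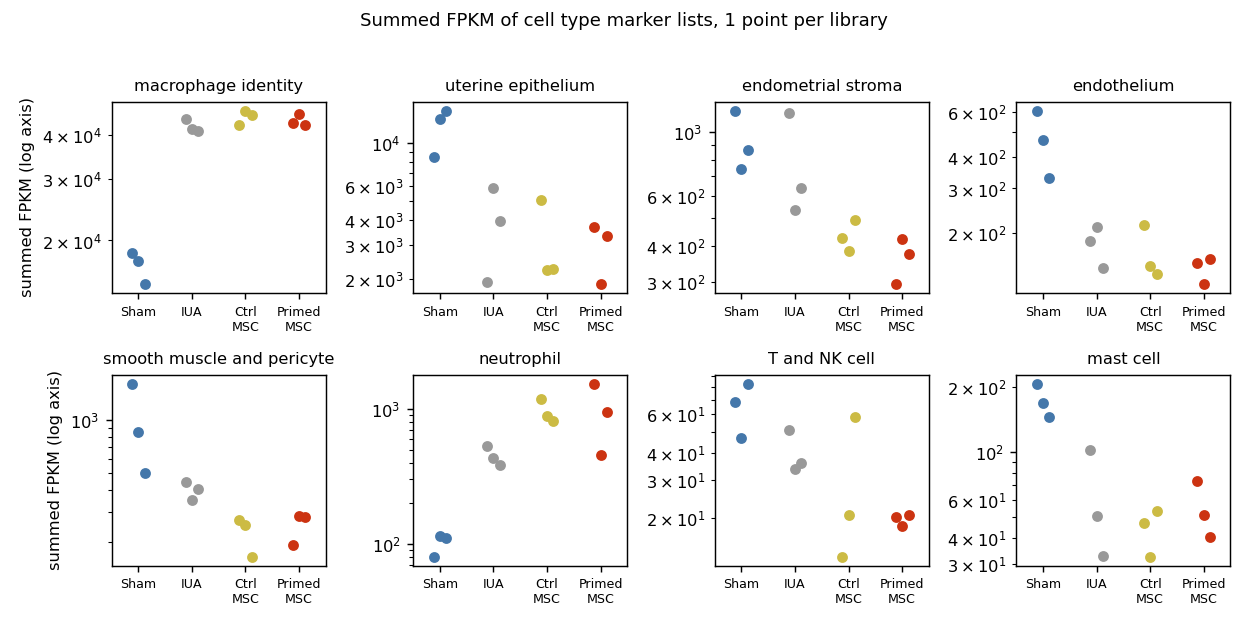
Summed FPKM of 8 marker lists on log axes, 1 point per library, by group. Macrophage sums lie at 15026 to 18369 in Sham and at 42439 to 45841 after primed MSC, whereas epithelial sums lie at 8428 to 14622 in Sham and at 1879 to 3713 after primed MSC.

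The largest rise was in Arg1, arginase 1, which hydrolyses arginine to ornithine and is a standard marker of repair macrophages (GRCm38 chr10:24915221-24927484, minus strand). Its FPKM was 2.72, 9.89 and 5.29 in the Sham libraries and 823, 1125 and 1020.4 after primed MSC. Every primed library was far above every Sham library, and the log2 change was 7.28 ± 0.34 (SE, adjusted p = 1.91e-07). IUA libraries read 986, 1617 and 817 and control MSC libraries 1131, 1614 and 1050.3, so the high level was shared by the 3 injured groups. Saa3, an acute phase serum amyloid A made by activated macrophages, read 61.7, 60.1 and 67.6 in Sham, 1747, 3167 and 1127 in IUA, 2762, 5694 and 3372 with control MSC and 2909, 1683 and 1826 with primed MSC, a log2 change of 5.02 ± 0.35 (SE, adjusted p = 1.48e-06). Chil3, the chitinase-like protein Ym1, read 13.6, 19.4 and 14.7 in Sham and 317, 544 and 422 after primed MSC, a log2 change of 4.65 ± 0.54 (SE, adjusted p = 3.38e-05). Its IUA libraries were higher still at 2639.7, 4775 and 759.9, and primed MSC differed from IUA by a log2 change of -2.34 ± 0.54 (SE, adjusted p = 0.0119).

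The same list of 12 included surface receptors and secreted proteins of myeloid cells. Fpr1, the formyl peptide receptor, read 3.71, 3.75 and 3.07 in Sham, 54.1, 69.2 and 51.8 in IUA, 106, 223 and 122 with control MSC and 173, 87.9 and 96.2 with primed MSC, a log2 change of 4.67 ± 0.28 (SE, adjusted p = 6.33e-07). Marco, a scavenger receptor for bacteria and particles, read 0.84, 1.1 and 0.95 in Sham, 40.6, 48.6 and 29.5 in IUA, 44.8, 81.1 and 44 with control MSC and 33.8, 29.3 and 27 with primed MSC. S100a8, a subunit of calprotectin, read 1.05, 0.82 and 3.78 in Sham, 54.7, 15.3 and 22.6 in IUA, 36.2, 71.6 and 77.2 with control MSC and 71.8, 29.1 and 28.6 with primed MSC, with primed replicate 1 the highest of its group. Sirpb1c, a signal-regulatory surface protein, changed by 4.56 on the log2 scale, Tarm1, an activating receptor of myeloid cells, by 4.09, and Ly6i, a Ly6 family surface protein, by 4.83. Slpi, a secreted inhibitor of leukocyte proteases, read 42, 28 and 40.7 in Sham, 592, 732 and 393 in IUA, 634, 922 and 711 with control MSC and 811, 419 and 506 with primed MSC. Ly6i, Sirpb1c, Saa3 and Chil3 belong to families of close paralogs, among which the counting could split reads, so their levels are uncertain to that extent.

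Of the 12 genes with the largest rises, 4 were called higher with primed MSC than in IUA (Slc13a3, Dmbt1, Fpr1 and Sirpb1c) and 1, Chil3, lower. Over all tested genes these shares were 12.2% and 6.97%. The 12 were chosen for high values in the same primed libraries, so this count is a description. Slc13a3, a sodium-coupled dicarboxylate transporter, read 7.8, 3.51 and 2.76 in Sham and 121, 157 and 92.9 after primed MSC, a log2 change of 4.52 ± 0.30 (SE, adjusted p = 1.17e-06). IUA libraries read 5.59, 4.62 and 4.41, inside the Sham range, and control MSC libraries 56.3, 101 and 66. The difference between primed MSC and IUA was 4.38 ± 0.30 (SE, adjusted p = 5.91e-05) on the log2 scale, and that between primed and control MSC was 0.74 ± 0.30 (SE, adjusted p = 0.341). Dmbt1, a secreted scavenger glycoprotein of mucosal surfaces, read 0.4, 0.39 and 0.33 in Sham, 2.17, 1.73 and 1.55 in IUA, 46.4, 21.9 and 21.8 with control MSC and 56.2, 5.33 and 28.8 with primed MSC. Its primed libraries spread widely, with replicate 2 the lowest, and none overlapped IUA.

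**Figure D3:**
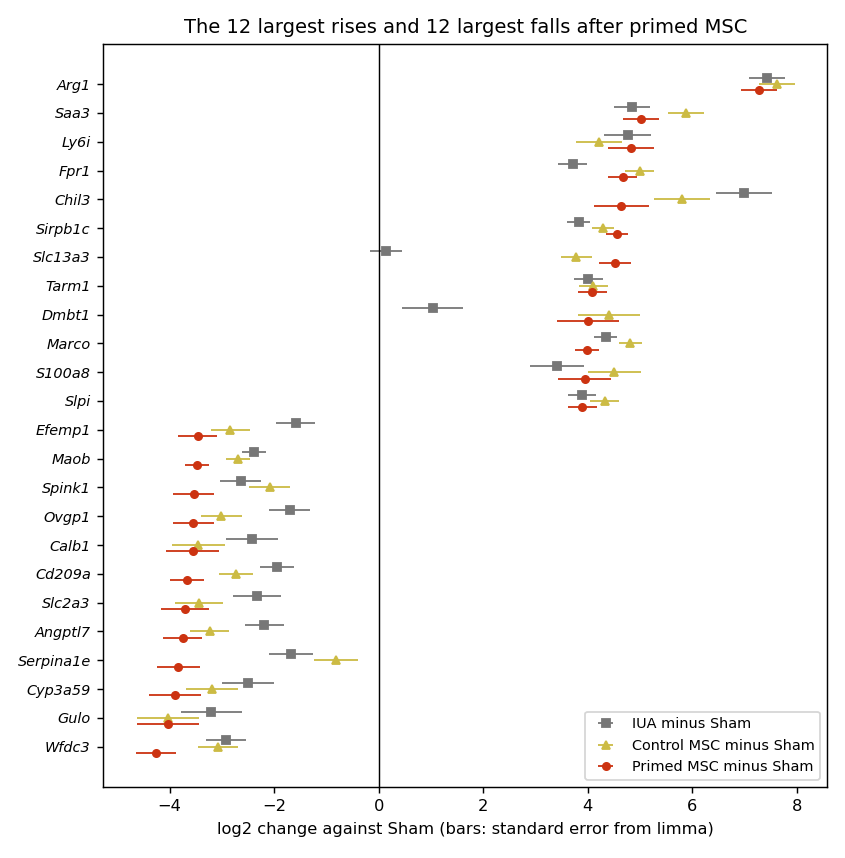
Log2 change against Sham (horizontal axis) of IUA (grey squares), control MSC (yellow triangles) and primed MSC (red circles) for the 12 largest rises and 12 largest falls after primed MSC; bars are limma standard errors, and all 3 differences share the Sham libraries. Arg1 lies at the top at 7.28, Wfdc3 at the bottom at -4.25, and Slc13a3 shows its IUA point near 0 (0.14) beside a primed point at 4.52.

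Promoter sequence from RefSeq (GRCm38.p6) was matched for 9 of the 12 genes with the largest rises and 7 of the 12 with the largest falls. Shown are the 250 bases upstream of the start of Saa3 and Fpr1, which rose, and of Efemp1, a matrix glycoprotein gene that fell, to set regulatory sequence of both directions side by side. Capitals mark matches, on either strand, to 4 letter patterns, where N is any base. C/EBP factors were searched as TTGCNNAA and the myeloid factor PU.1 as GAGGAAGT. For the dimeric factor AP-1 the letters were TGANTCA. These patterns, and the core promoter element known as the TATA box, searched as TATAAA, were chosen with the results known, and no overlap between different patterns was merged. The Saa3 window is chr7:46715677-46715926 on the minus strand, the Fpr1 window chr17:17883940-17884189 on the minus strand and the Efemp1 window chr11:28852955-28853204 on the plus strand, each printed 5′ to 3′ along the gene.
Saa3: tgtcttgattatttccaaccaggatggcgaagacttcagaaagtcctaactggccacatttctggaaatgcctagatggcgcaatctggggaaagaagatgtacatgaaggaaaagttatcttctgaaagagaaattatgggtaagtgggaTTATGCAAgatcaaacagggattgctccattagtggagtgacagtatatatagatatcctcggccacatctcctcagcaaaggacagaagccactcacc
Fpr1: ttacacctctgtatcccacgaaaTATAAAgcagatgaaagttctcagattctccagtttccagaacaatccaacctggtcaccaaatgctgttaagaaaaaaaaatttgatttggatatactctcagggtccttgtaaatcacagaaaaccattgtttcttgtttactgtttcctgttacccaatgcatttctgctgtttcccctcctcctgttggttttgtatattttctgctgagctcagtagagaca
Efemp1: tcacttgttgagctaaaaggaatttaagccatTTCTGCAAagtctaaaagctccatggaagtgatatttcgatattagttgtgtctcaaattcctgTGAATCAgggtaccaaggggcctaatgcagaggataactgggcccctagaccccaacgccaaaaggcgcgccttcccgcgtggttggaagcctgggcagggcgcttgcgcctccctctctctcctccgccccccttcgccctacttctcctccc
Saa3 held a C/EBP match 91 bases before the start, Fpr1 a TATA box match 221 bases before it, and Efemp1 a C/EBP match at 210 and an AP-1 match at 147 bases. The C/EBP letters were in 2 of 9 rising and 2 of 7 falling genes against 9.47% of the 9176 tested genes with a promoter. PU.1 letters were in 1 of 9 and 0 of 7 against 3.25%, AP-1 letters in 0 of 9 and 2 of 7 against 5.97%, and TATA letters in 3 of 9 and 1 of 7 against 8.55%. With so few promoters these counts describe the windows only.

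The 12 largest falls included genes of secreted proteins, enzymes and transporters. Wfdc3, a whey acidic protein family member, read 50, 44 and 47.6 in Sham and 2.08, 1.46 and 1.12 after primed MSC, a log2 change of -4.25 ± 0.38 (SE, adjusted p = 7.82e-06). Gulo, whose enzyme makes vitamin C in mice, read 40.8, 102 and 83.3 in Sham against 2.22, 4.22 and 3.89 after treatment. Ovgp1, an oviduct and uterine secretory glycoprotein, read 74.1, 39.6 and 46.5 in Sham against 4.89, 2.31 and 3.68 after treatment. Spink1, a trypsin inhibitor, changed by -3.54 on the log2 scale, Calb1, a calcium-binding protein, by -3.56, Cyp3a59, a cytochrome P450, by -3.90, Maob, monoamine oxidase B, by -3.48, and Angptl7, an angiopoietin-like secreted protein, by -3.75. Slc2a3, a high-affinity glucose transporter, read 118, 193 and 137 in Sham and 9.19, 13.8 and 8.44 after primed MSC. Efemp1 read 60.4, 34.7 and 38.6 in Sham against 2.3, 4.47 and 2.57 after treatment, and its IUA libraries read 21.3, 11.1 and 10.8, between them.

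Of these 12 genes, 7 were also called lower with primed MSC than in IUA, and 0 higher, beside 6.97% and 12.2% of all tested genes. The 12 were chosen for low values in the same primed libraries, so this count is a description. The log2 differences from IUA were -1.88 for Efemp1, -1.84 for Ovgp1, -1.56 for Angptl7, -1.34 for Wfdc3 and -1.10 for Maob (adjusted p 0.00639 to 0.0308), and Cd209a and Serpina1e were the other two. Cd209a, a C-type lectin of monocyte-derived dendritic cells, read 51.8, 39.1 and 46.9 in Sham, 14.7, 5.77 and 15.9 in IUA and 1.74, 3.68 and 2.88 after primed MSC, and the log2 difference between primed MSC and IUA was -1.73 ± 0.33 (SE, adjusted p = 0.0052). Serpina1e, a mouse paralog of alpha-1 antitrypsin, read 45.6, 87.5 and 41.8 in Sham, 29.2, 7.21 and 20.9 in IUA, 38.2, 21.2 and 36.4 with control MSC and 2.36, 3.25 and 3.29 with primed MSC. Its primed libraries lay below every other library, with a log2 difference from control MSC of -3.02 ± 0.42 (SE, adjusted p = 0.0304). The Serpina1 paralogs are nearly identical, so reads may have been shared among them.

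**Figure D4:**
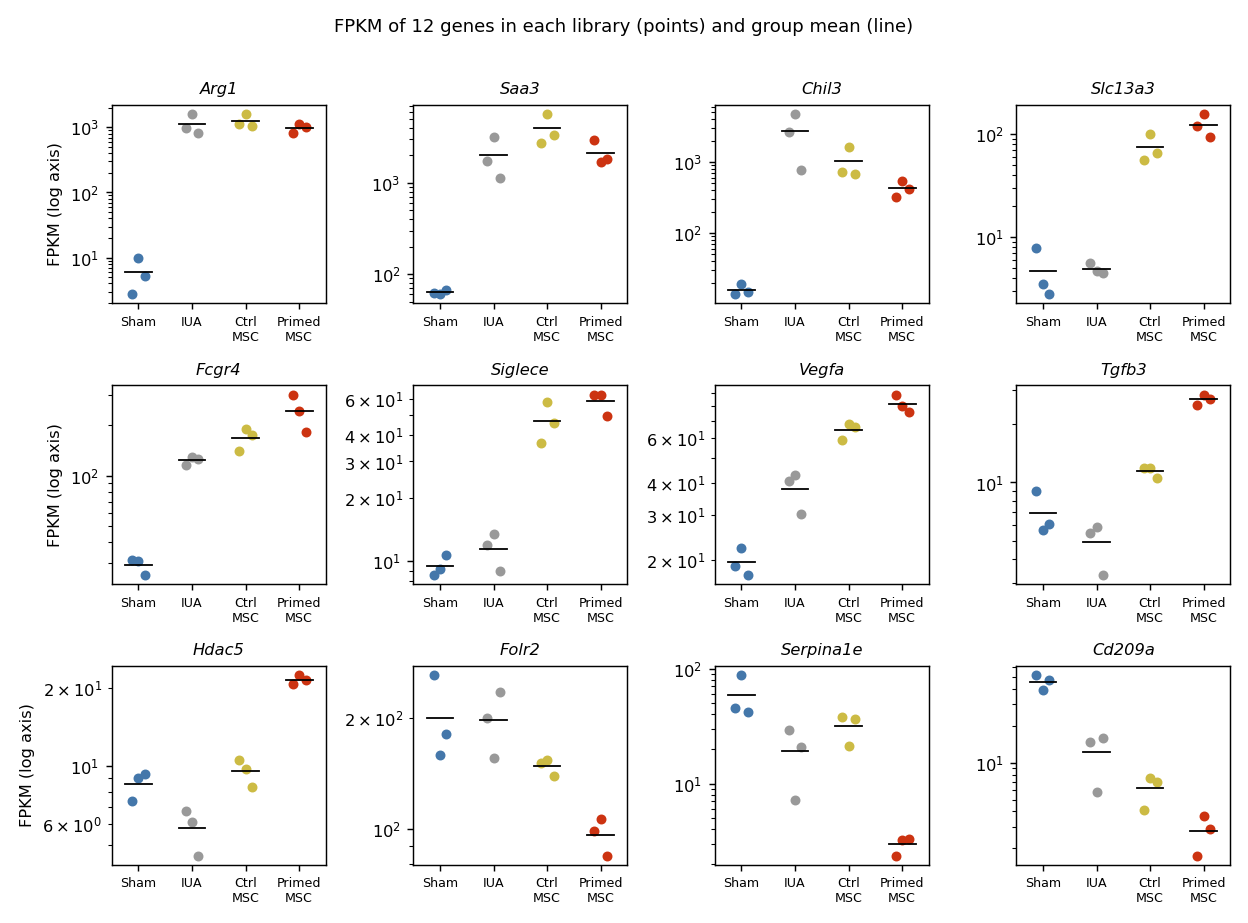
FPKM on log axes of 12 genes in each library (points) with group means (lines). Arg1, Saa3 and Chil3 are low in the 3 Sham libraries alone, Slc13a3 and Siglece are low in both Sham and IUA, and Serpina1e is lowest after primed MSC (2.36, 3.25 and 3.29).

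Macrophage identity genes rose nearly as a block. Of 22 tested, 21 were higher after primed MSC and 0 were lower, with a median log2 change of 1.27 with primed MSC, 1.00 in IUA and 1.12 with control MSC. Adgre1, which encodes F4/80, the sorting antigen, read 256, 207 and 205 in Sham and 1161, 1382 and 983 after primed MSC, a log2 change of 2.39 ± 0.14 (SE, adjusted p = 5.43e-07). Its IUA libraries read 476, 401 and 424 and its control MSC libraries 837, 1039 and 944, and primed MSC exceeded IUA by 1.43 ± 0.14 (SE, adjusted p = 0.00027). Itgam, the CD11b integrin chain of monocytes and macrophages, read 24.6, 18.1 and 21.9 in Sham, 83.8, 117 and 56.2 in IUA, 122, 174 and 138 with control MSC and 188, 192 and 160.3 with primed MSC. Csf1r, through which colony-stimulating factor 1 keeps macrophages alive, read 167, 135 and 143 in Sham, 242, 249.6 and 116 in IUA, 276, 295 and 267 with control MSC and 367, 371 and 353 with primed MSC. Cd68, a lysosomal glycoprotein, read 670.5, 486 and 510.1 in Sham, 1477, 1033 and 1512 in IUA, 1078, 1149.7 and 1200 with control MSC and 901, 1031 and 974 with primed MSC. At Itgam and Cd68 every library of the injured groups was above Sham, whereas at Csf1r IUA replicate 3 was below it. Ptprc, the pan-leukocyte antigen CD45, rose by 1.07 ± 0.13 (SE, adjusted p = 4.61e-05) on the log2 scale, and Cybb, the phagocyte oxidase subunit, by 1.76. Cx3cr1, the fractalkine receptor, was the member that did not pass, at 13.1, 11.8 and 10.1 in Sham and 11.5, 16.7 and 19.1 after primed MSC, where the groups overlapped (adjusted p = 0.0673).

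Receptors for antibody and for sialic acid were higher as well. Of 15 Fc receptor and Siglec genes listed 13 were tested, without Siglecf and Siglecg. Among those tested, 10 were higher and 0 lower, with a median log2 change of 1.62 with primed MSC, 0.91 in IUA and 1.39 with control MSC. With no filter on low values 10 of 15 were higher and 0 lower, and the primed median was 1.24. Fcgr4, the activating receptor for IgG2 antibodies, read 31.4, 31 and 25.6 in Sham, 115, 129 and 125 in IUA and 304, 244 and 182 after primed MSC, and exceeded Sham by 2.98 ± 0.17 (SE, adjusted p = 4.75e-07). Siglece, an inhibitory sialic acid receptor, read 8.57, 9.16 and 10.7 in Sham, 11.9, 13.5 and 8.92 in IUA, 36.9, 57.7 and 45.8 with control MSC and 62.8, 62.2 and 49.5 with primed MSC. Its IUA libraries overlapped Sham, and primed MSC exceeded IUA by 2.26 ± 0.18 (SE, adjusted p = 0.000111). Fcrl5, an Fc receptor-like protein, was at 0, 0.12 and 0.03 in Sham and 8.53, 7.94 and 5.66 after primed MSC. Fcgr1 and Fcgr2b, the high-affinity activating and the inhibitory IgG receptors, rose by 1.86 and 1.62 on the log2 scale. Cd22 and Lilra5 did not pass, with log2 differences of 0.30 and -0.27.

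Inflammatory activation genes were mostly higher: 15 of 20 rose and 1 fell, with a median log2 change of 1.35 with primed MSC, 1.06 in IUA and 1.19 with control MSC. The number called lower was 0 without Sham replicate 1 or 2, IUA replicate 3 or primed replicate 2 or 3. Il1b, interleukin 1 beta, read 192, 220 and 195 in Sham, 754, 856 and 519 in IUA, 609, 809 and 619 with control MSC and 1313, 651 and 798 with primed MSC, a log2 change of 2.12 ± 0.24 (SE, adjusted p = 3.1e-05). Nos2, inducible nitric oxide synthase, was low throughout at 0.01, 0.14 and 0.08 in Sham against 7.07, 2.5 and 4.27 after treatment. Fpr2, a second formyl peptide receptor, rose by 3.33 on the log2 scale. Il12b, a subunit of interleukin 12, did not pass (4.89, 7.75 and 5.47 against 8.27, 5.02 and 4.24). Ccr7, a chemokine receptor of migrating cells, rose by 0.85, a call lost when Sham replicate 2 or 3 or primed replicate 1 or 3 was left out (adjusted p 0.0536 to 0.137).

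Chemokines moved in both directions. Of 13 CXC chemokines 9 were higher (69.2%) and 3 lower (23.1%), with a median of 0.93 with primed MSC, 0.64 in IUA and 1.22 with control MSC. Of 12 CC chemokines 4 were higher (33.3%) and 4 lower (33.3%), with a median of 0.07 with primed MSC, 0.56 in IUA and 0.19 with control MSC. Over all genes these shares were 14.5% and 45%. The CC median was 0.43 after median-ratio scaling, where 2 were lower, and -0.07 to 0.17 when 1 library was left out. Cxcl13, a B cell attractant, read 7.44, 4.66 and 3.88 in Sham, 77.7, 57.6 and 53.7 in IUA, 91, 174 and 173 with control MSC and 74, 111 and 54.9 with primed MSC. Cxcl9, which draws T cells, read 1.13, 1.5 and 1.09 in Sham against 12.1, 13 and 18 after treatment, and the neutrophil attractants Cxcl3 and Cxcl5 rose by 2.13 and 2.53 on the log2 scale. Cxcl12, a stromal chemokine, read 27, 18.8 and 15.5 in Sham against 3.71, 6.27 and 4.67 after treatment, and Cxcl15, an epithelial chemokine, 56.5, 86.1 and 87 in Sham against 10.4, 8.65 and 10.5 after treatment, with no overlap in either. Ccl6 and Ccl9, made by myeloid cells, rose by 1.32 and 1.35. Ccl24, an eosinophil attractant, read 4.66, 6.01 and 3.7 in Sham, 63, 124 and 51.2 in IUA and 7.92, 26.4 and 24.8 after primed MSC, and differed from IUA by a log2 change of -2.02 ± 0.41 (SE, adjusted p = 0.007). The monocyte attractant Ccl7 read 2807, 1443 and 1662 in Sham and 989, 626 and 856 after primed MSC, a log2 change of -1.22 ± 0.28 (SE, adjusted p = 0.0026). Ccl11, another eosinophil attractant, fell by 2.19 on the log2 scale. Ccl2 (-0.64) and Ccl8 (-1.26) were called lower, as was Cxcl10 (-0.73), and Ccl3 was called higher (0.66). Each of these 4 calls was lost under some setting: the first 3 were lost under median-ratio scaling (adjusted p 0.445, 0.0663 and 0.355), Ccl3 without Sham replicate 2 or 3 or primed replicate 1 or 3 (0.075 to 0.135), Cxcl10 also without Sham replicate 1 or 2, IUA replicate 3 or primed replicate 2 or 3 (0.0525 to 0.161), Ccl2 also without Sham replicate 1 or primed replicate 2 (0.089 to 0.0916) and Ccl8 also without Sham replicate 1 (0.0516). Without Sham replicate 1 the CC chemokines called lower numbered 2.

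Of 18 interferon-stimulated genes tested, 2 were higher (11.1%) and 6 lower (33.3%), beside 14.5% and 45% of all genes, with a median log2 change of -0.39 with primed MSC, -0.45 in IUA and -0.84 with control MSC. The primed median was 0.03 after median-ratio scaling, and 1 library moved it: it was -0.65 without Sham replicate 3 and -0.60 without primed replicate 1, with 7 and 8 genes lower, and -0.24 without Sham replicate 2, with 3 genes higher. Irf7, a transcription factor of the type I interferon response, read 30.8, 30.5 and 35.4 in Sham and 72.7, 56.5 and 85 after primed MSC, and Oas1a, an antiviral RNA sensor, 28.1, 27.8 and 31.4 in Sham against 52.7, 48.8 and 57.9 after treatment. Ifit3, an interferon-induced antiviral protein, read 44.3, 50.6 and 41.6 in Sham against 17.8, 13.4 and 18.5 after treatment, a log2 change of -1.41 ± 0.35 (SE, adjusted p = 0.00391). Iigp1, an interferon-inducible GTPase, fell by 1.48 and Ifi44 by 0.96 on the log2 scale. Usp18, which dampens interferon signalling, was called lower (-1.02) on the deposited scale and not after median-ratio scaling (adjusted p 0.0511). Gbp2 and Isg15 did not pass (0.38 and 0.10). Of 8 MHC class II presentation genes, H2-DMa and H2-DMb1, the peptide exchange factor, rose by 0.98 and 0.64, and the other 6 did not pass: Cd74 0.33, H2-Ab1 0.26, H2-Aa 0.14, H2-Eb1 0.04, H2-Oa -0.53 and H2-Ob -0.53. The median log2 change was 0.20 with primed MSC, 0.41 in IUA and -0.06 with control MSC. The number called depends on the scale, since 6 of the 8 were called higher after median-ratio scaling and 4 after the GC correction, and the primed median was -0.04 after quantile normalization. It was 0.13 without Sham replicate 3 and 0.07 without primed replicate 1, and 1 gene was called lower without Sham replicate 3, IUA replicate 1 or IUA replicate 3 and 2 under the replicate block.

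Alternative activation genes were split. Of 19 tested, 7 rose (36.8%), Arg1 and Chil3 among them, and 5 fell (26.3%), beside 14.5% and 45% of all genes. Their median was 0.21 with primed MSC, 0.31 in IUA and 0.32 with control MSC. The primed median was 0.53 after median-ratio scaling and 0.33 without Sham replicate 3. Clec7a, the beta-glucan receptor dectin 1, read 106, 91 and 84.8 in Sham and 384, 456 and 411 after primed MSC. Tgm2, transglutaminase 2, read 162, 142 and 172 in Sham, 210.5, 202 and 86.4 in IUA and 481, 519.6 and 445 after primed MSC, so that IUA overlapped Sham and primed MSC exceeded IUA by 1.63 ± 0.27 (SE, adjusted p = 0.00285). Mgl2, a lectin of alternatively activated cells, read 76.7, 43.5 and 57.5 in Sham and 7.98, 18.8 and 13.8 after primed MSC, a log2 change of -2.09 ± 0.33 (SE, adjusted p = 0.000271). Its relative Clec10a fell by 1.09 and Socs2, a cytokine signalling inhibitor, by 1.52 on the log2 scale. Retnla, a secreted marker of interleukin 4 activation, read 95.2, 37.6 and 60.5 in Sham and 23.9, 47.1 and 43 after primed MSC, which overlapped and did not pass (adjusted p = 0.384). In IUA it read 423, 913 and 167, and primed MSC differed from IUA by a log2 change of -3.42 ± 0.67 (SE, adjusted p = 0.00614).

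Resident macrophage genes were split as well, with 6 of 15 higher (40%) and 6 lower (40%), beside 14.5% and 45% of all genes. Their median was -0.15 with primed MSC, 0.24 in IUA and 0.44 with control MSC. The sign of the primed median was not stable: it was 0.19 after median-ratio scaling, 0.06 without Sham replicate 1, 0.0034 without primed replicate 1, -0.27 without Sham replicate 3, -0.34 without primed replicate 2 and -0.07 without primed replicate 3. Gas6, the bridging ligand for apoptotic cells, read 149.7, 178 and 205 in Sham and 41.5, 47.8 and 49.3 after primed MSC. Folr2, a folate receptor of resident macrophages, read 262, 159 and 181 in Sham, 200.1, 156 and 237 in IUA and 98.3, 106 and 84.5 after primed MSC, and Lyve1, a hyaluronan receptor, fell by 1.87 on the log2 scale. Cd163, the haemoglobin scavenger receptor, read 7.83, 5.46 and 5 in Sham against 1.47, 1.73 and 0.99 after treatment. Vsig4, a complement receptor, read 2.1, 1.79 and 1.74 in Sham and 4.31, 14.7 and 9.81 after primed MSC, so that it rose, and Stab1 and Maf rose by 0.89 and 0.62. Of 14 recruited monocyte genes 8 rose and 1 fell (median 0.86 with primed MSC, 1.24 in IUA and 1.00 with control MSC). Thbs1, thrombospondin 1, read 240.5, 234 and 258 in Sham, 813, 799.7 and 648 in IUA, 1047, 1269.6 and 1187 with control MSC and 1646, 1677 and 1366 with primed MSC, a log2 change of 2.67 ± 0.12 (SE, adjusted p = 1.91e-07). Smpdl3a rose by 1.28; Plac8 did not pass (-0.08), and Ly6a was called lower (-0.97), which was lost under median-ratio scaling and without Sham replicate 2 or primed replicate 2 (adjusted p 0.0564 and 0.0726 for the latter).

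Of 15 genes of lipid-associated scar macrophages 11 rose and 2 fell (median 0.76 with primed MSC, 1.18 in IUA and 0.92 with control MSC), and 1 was lower after median-ratio scaling (median 1.17). Spp1, osteopontin, read 243, 301 and 286 in Sham and 1501, 2229.6 and 2271 after primed MSC, a log2 change of 2.83 ± 0.18 (SE, adjusted p = 1.03e-06). IUA libraries read 5762, 3939 and 4253, and primed MSC differed from IUA by a log2 change of -1.22 ± 0.18 (SE, adjusted p = 0.00167). Fabp5, a fatty acid carrier, and Plin2, a coat protein of lipid droplets, rose by 1.61 and 1.31 on the log2 scale. Cd9, a tetraspanin that epithelium also expresses, read 873, 1038 and 1105 in Sham and 321, 299 and 395 after primed MSC. Cd63, another tetraspanin, was called lower (-0.52), a call lost after median-ratio scaling (adjusted p 0.602), and Ctsk did not pass (-0.13). Apoe, the lipid carrier, was called higher (0.61), which was lost under quantile normalization (adjusted p 0.57) and with no filter on low values (0.0613).

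Of 17 growth factors 6 were higher (35.3%) and 8 lower (47.1%), beside 14.5% and 45% of all genes (median -0.31 with primed MSC, -0.19 in IUA and 0.17 with control MSC). After median-ratio scaling 7 were higher and 4 lower, with a median of 0.11. Vegfa, the main angiogenic factor, read 19.1, 22.4 and 17.5 in Sham, 40.9, 43.1 and 30.2 in IUA, 58.7, 68 and 66 with control MSC and 88.6, 79.7 and 75.9 with primed MSC, and exceeded Sham by 2.00 ± 0.14 (SE, adjusted p = 1.57e-06). Tgfb3, a transforming growth factor beta, read 8.99, 5.67 and 6.07 in Sham, 5.48, 5.91 and 3.31 in IUA, 11.8, 11.9 and 10.6 with control MSC and 25.2, 28.6 and 27.2 with primed MSC. Its primed libraries were the highest of the 12, and exceeded control MSC by 1.17 ± 0.19 (SE, adjusted p = 0.05). Osm, oncostatin M, and Areg, amphiregulin, rose by 1.84 and 1.53 on the log2 scale. Hbegf, heparin-binding EGF, read 146, 194 and 223 in Sham and 60.8, 49.6 and 63.2 after primed MSC, and Pdgfa and Pdgfc fell by 1.41 and 1.64. Gdf15, a stress cytokine, was called lower (-0.82) except after median-ratio scaling (adjusted p 0.0545). Without Sham replicate 1 the growth factors called lower numbered 5 (median -0.18). The median was -0.17 without primed replicate 1, -0.49 without primed replicate 2, and -0.50 without IUA replicate 1 or 2 or control MSC replicate 3, where 16 were tested.

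Of 17 matrix proteases and their inhibitors 8 rose (47.1%), 2 fell and 7 did not pass (median 0.82 with primed MSC, 0.91 in IUA and 0.95 with control MSC). Median-ratio scaling gave 11 higher, 1 lower and a median of 1.24. Of 17 collagen and matrix genes 1 rose and 9 fell (median -1.04 with primed MSC, -0.66 in IUA and -1.03 with control MSC). Those 9 are 52.9% of the list, beside 45% of all genes called lower, and the primed median was -0.69 without Sham replicate 1 and -0.63 after median-ratio scaling. The number called lower was 12 with the Sham and primed MSC libraries alone, and likewise without IUA replicate 1. Over all tested genes, 5281 of 11604 and 5239 of 11537 were lower under these settings. Mmp9, gelatinase B, read 5.8, 3.47 and 5.5 in Sham, 12.3, 11.5 and 6.79 in IUA, 39.8, 68.3 and 53.2 with control MSC and 71, 44.6 and 48.2 with primed MSC. Primed MSC exceeded Sham by 3.22 ± 0.26 (SE, adjusted p = 4.05e-06) and IUA by 2.32 ± 0.26 (SE, adjusted p = 0.00047). Mmp8, neutrophil collagenase, read 0.3, 0.24 and 0.24 in Sham and 7.04, 14.2 and 11.4 after primed MSC, and Adam8 and Serpinb2 rose by 2.30 and 1.66. Timp3, an inhibitor of metalloproteases, read 189.9, 224 and 184 in Sham against 41.5, 34 and 47.2 after treatment. Mmp2 was called lower (-1.38), which was lost under median-ratio scaling (adjusted p 0.0798) and without Sham replicate 1 or primed replicate 1 (0.0599 and 0.0769), and Mmp3 and Plaur did not pass (-0.92 and -0.42). Fn1, fibronectin, was the matrix gene that rose, from 38.5, 30.7 and 35.9 in Sham to 93.1, 160 and 128 after primed MSC. Dcn, decorin, a proteoglycan of fibroblasts, read 551, 306 and 399 in Sham, 487, 154 and 198 in IUA and 47.8, 94.5 and 53.1 after primed MSC. Sparc, Fbn1 and Col4a1 fell by 1.67, 1.41 and 1.13 on the log2 scale, and Col5a1 did not pass (0.07). Summed FPKM of 16 endometrial stroma markers was 742 to 1183 in Sham and 295 to 424 after primed MSC, and its part in the matrix values was not tested. Without IUA replicate 1 the protease and inhibitor genes called lower numbered 4, and without primed replicate 1 they numbered 1.

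Coagulation genes moved in both directions: 6 of 14 rose (42.9%) and 4 fell (28.6%), beside 14.5% and 45% of all genes. Their median was 0.41 with primed MSC, 0.33 in IUA and 0.36 with control MSC, and the primed median was 0.75 after median-ratio scaling. F10, coagulation factor X, read 2.12, 2.23 and 2.28 in Sham against 29.8, 29.4 and 26.9 after treatment. F7, factor VII, read 0.11, 0.8 and 2.51 in Sham against 10.2, 16 and 11 after treatment. F5, factor V, rose by 1.15. F3, tissue factor, the trigger of clotting, read 1147, 1612 and 1793 in Sham and 392, 233 and 363 after primed MSC, and Plat, tissue plasminogen activator, 624, 781 and 762 in Sham against 169, 113 and 176 after treatment. Tfpi2, a protease inhibitor, fell by 1.06, and Tfpi, which blocks tissue factor, was called lower (-0.67) except under median-ratio, quantile and GC settings (adjusted p 0.0925 to 0.179).

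Of 17 glycolysis genes 12 were called higher (70.6%) and 1 lower (median 0.81 with primed MSC, 0.44 in IUA and 0.82 with control MSC); after median-ratio scaling 14 were higher and 0 lower (median 1.23). Slc16a3, the lactate exporter MCT4, read 15.1, 14 and 19.2 in Sham, 39.8, 42.3 and 5.32 in IUA, 66.5, 81 and 54.3 with control MSC and 179, 176 and 156 with primed MSC, and exceeded Sham by 3.33 ± 0.54 (SE, adjusted p = 0.000307). Hk3, the hexokinase of myeloid cells, read 17.2, 11.9 and 13.2 in Sham and 72.2, 67.1 and 62.4 after primed MSC. Eno1, Pgk1 and Pgam1, enzymes of the lower pathway, rose by 1.56, 1.31 and 0.81 on the log2 scale. Hk1, the widely expressed hexokinase, was called lower (-0.80) except after median-ratio scaling (adjusted p 0.0837).

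In the list of tricarboxylic acid cycle and itaconate genes, of 16 tested 2 rose and 10 fell (median -0.43 with primed MSC, -0.40 in IUA and -0.34 with control MSC). After median-ratio scaling 5 were higher and 3 lower, and after the GC correction 2 and 5, with medians of -0.02 and -0.06. Acod1, which makes itaconate in activated macrophages, read 20.2, 11.4 and 15.8 in Sham and 391, 156 and 185 after primed MSC, with replicate 1 the highest, and Slc13a3 was the other that rose. Pcx, pyruvate carboxylase, read 26.8, 47.6 and 50.7 in Sham against 5.3, 5.27 and 3.52 after treatment, a log2 change of -2.87 ± 0.47 (SE, adjusted p = 0.000307). Fh1 and Suclg1 fell by 1.09 and 0.91 on the log2 scale, and Sucla2 was called lower (-0.72) except after median-ratio scaling (adjusted p 0.0516). Idh2 did not pass (0.06).

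Lysosomal genes were mostly higher: 17 of 23 rose and 1 fell (median 0.85 with primed MSC, 0.81 in IUA and 0.90 with control MSC). Ctss, cathepsin S, read 1291, 1077 and 1138 in Sham, 4902, 4727 and 4419 in IUA, 3523, 3629.7 and 3859.8 with control MSC and 3791, 4052 and 3669 with primed MSC. Lgmn, legumain, read 1118, 864 and 840.4 in Sham, 2012, 1571 and 1816 in IUA, 2016, 2152 and 2195 with control MSC and 2389, 2561 and 2195 with primed MSC. Ctsz, Lamp1 and Lipa rose by 1.34, 1.14 and 0.90 on the log2 scale. Lamp2 was called lower (-0.27), which turned to 0.15 after median-ratio scaling and was lost without Sham replicate 2 or 3 or primed replicate 1 or 3 (adjusted p 0.0694 to 0.109). The number of lysosomal genes called lower was 0 to 2 when 1 library was left out, and 0 after median-ratio scaling, where 21 were higher (median 1.27). In the cholesterol list, 4 of 17 rose (23.5%) and 6 fell (35.3%), beside 14.5% and 45% of all genes. The median was -0.04 with primed MSC, -0.70 in IUA and -0.42 with control MSC. The primed median was 0.34 after median-ratio scaling and -0.17 to -0.01 when 1 library was left out. Those named that rose serve efflux: Abca1, a cholesterol exporter, read 49.1, 52 and 44 in Sham against 109, 112 and 104 after treatment, and Abcg1 and Nr1h3, the oxysterol receptor, rose by 0.81 and 1.21. Those named that fell serve synthesis: Lss, lanosterol synthase, read 5.17, 4.77 and 10.7 in Sham against 1.14, 0.83 and 1.14 after treatment, and Fdft1, Idi1 and Cyp51 fell by 1.70, 1.12 and 0.94.

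Iron and antioxidant genes were higher in 9 of 15 cases and lower in 2 (median 0.38 with primed MSC, 0.24 in IUA and 0.43 with control MSC); median-ratio scaling gave 11 and 0 with a median of 0.80. Slc11a1, the phagosomal metal transporter NRAMP1, read 132, 129.8 and 108 in Sham, 342, 257 and 216 in IUA and 557, 543 and 498 after primed MSC. Slc7a11, the cystine importer, read 30.8, 20.1 and 28.7 in Sham against 131, 116 and 119 after treatment. Fth1, ferritin heavy chain, rose by 1.20, and Ftl1, ferritin light chain, by 0.95 except under quantile normalization (adjusted p 0.403). Slc40a1, the iron exporter, and Nqo1, a quinone reductase, were called lower (-0.60 and -0.47), and both calls were lost under median-ratio, quantile and GC settings (adjusted p 0.124 to 0.894). Nqo1 also lost its call without Sham replicate 1 or 3 or primed replicate 1 or 3 (adjusted p 0.0554 to 0.133), and Gclc did not pass (-0.18). Without Sham replicate 2, and likewise without primed replicate 2, the list had 5 genes called higher, and 1 was called lower without Sham replicate 1 or 3 or primed replicate 1 or 3.

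Of 19 cell cycle genes 1 was called higher and 3 lower (median 0.0041 with primed MSC, 0.04 in IUA and 0.29 with control MSC), a balance that turned with scaling: 7 were higher and 1 lower after median-ratio scaling and quantile normalization alike, and 7 and 2 after the GC correction (medians 0.33, 0.43 and 0.36). Ccnd1, cyclin D1, read 8.25, 10.6 and 10 in Sham and 3.71, 3.57 and 4.65 after primed MSC, a log2 change of -1.09 ± 0.17 (SE, adjusted p = 0.00021). Ccnb1, cyclin B1, was called higher (0.70), which was lost without Sham replicate 2 or 3 or primed replicate 3 (adjusted p 0.0721 to 0.118). Top2a and Tyms were called lower (-0.78 and -0.63); both calls were lost after median-ratio scaling (adjusted p 0.0668 and 0.351), and that of Tyms without Sham replicate 1 or 2 or primed replicate 1 or 2 (0.0979 to 0.184). Aurkb, Ube2c, Cdk1 and Cdc20 did not pass (0.61, 0.49, 0.46 and -0.37). Without Sham replicate 1 the list had 6 genes called higher and 2 lower (median 0.17), without primed replicate 2 it had 2 and 2, and without Sham replicate 2 or 3 or primed replicate 3 it had 0 higher. Of 22 immediate-early and heat shock genes, which tissue dissociation can induce, 2 rose (9.09%) and 11 fell (50%), beside 14.5% and 45% of all genes (median -0.49 with primed MSC, -0.79 in IUA and -0.63 with control MSC). After median-ratio scaling 5 were higher and 7 lower, with a median of -0.07. Hspb1, a small heat shock protein, read 706, 695 and 603 in Sham and 125, 120 and 151 after primed MSC, and Egr1 136, 175 and 189 in Sham against 42.4, 49.1 and 54.6 after treatment. Dnajb1 and Btg2 fell by 1.13 and 1.23, Fos and Dusp1 rose by 0.74 and 0.70, and Klf2 and Zfp36 did not pass (0.62 and 0.32). Without IUA replicate 3, and likewise with the Sham and primed MSC libraries alone, 4 of this list were called higher and 12 lower. The GC correction gave 4 higher and 8 lower. IUA replicate 3 stood apart on GC content, and the part of that in these counts was not tested.

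**Figure D5:**
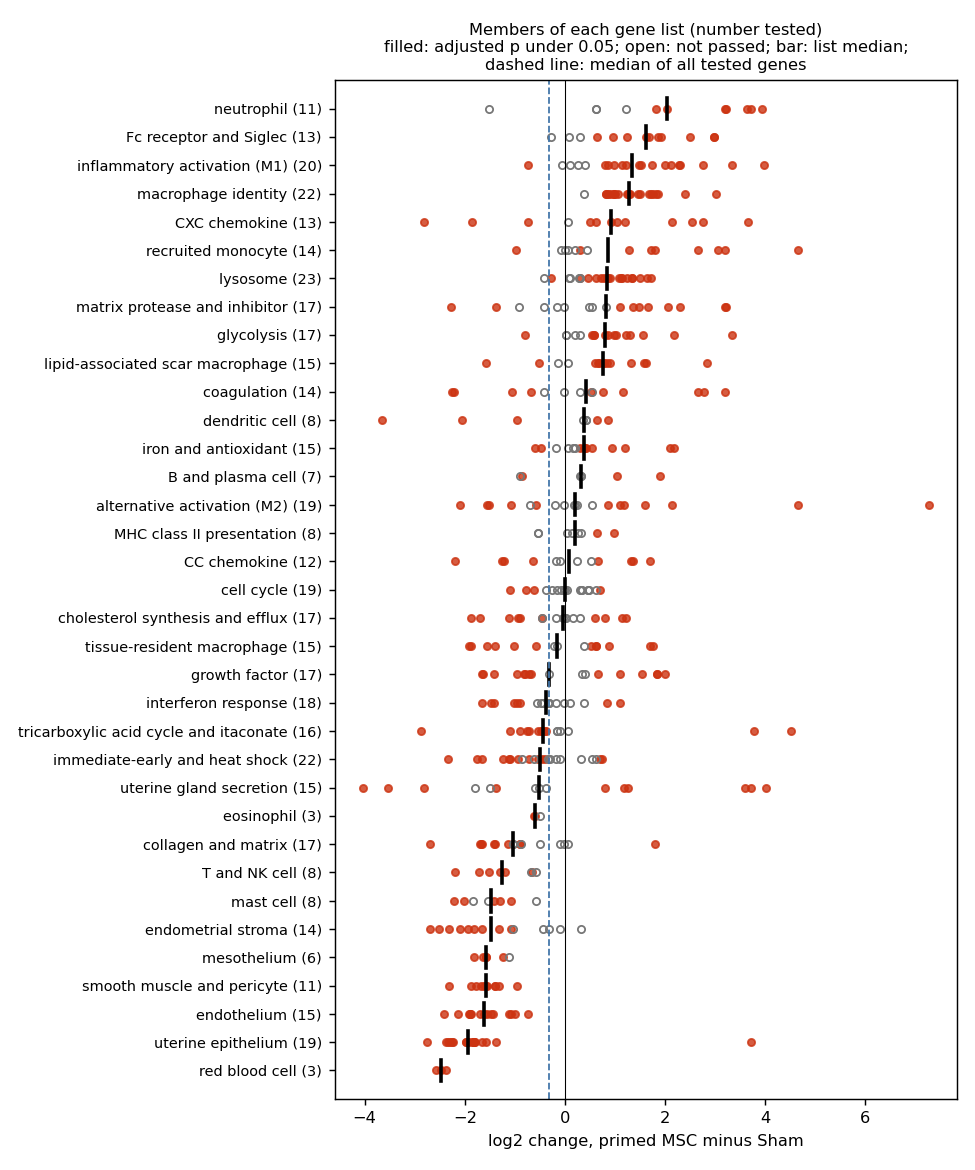
Log2 change, primed MSC minus Sham (horizontal axis), of each tested member of 35 gene lists (rows, with the number tested), filled where adjusted p was under 0.05; black bars are list medians and the dashed line is the median of all tested genes, -0.33. Neutrophil, Fc receptor and Siglec, inflammatory and macrophage identity lists lie highest (medians 2.04, 1.62, 1.35 and 1.27), and red blood cell and uterine epithelium lists lowest (-2.48 and -1.94).

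Genes of non-immune uterine cells were lower after primed MSC almost throughout. Of 19 epithelial genes 18 fell and 1 rose (median -1.94 with primed MSC, -1.76 in IUA and -1.89 with control MSC). Of 15 endothelial genes 15 fell (median -1.62 with primed MSC, -1.21 in IUA and -1.50 with control MSC), and of 11 smooth muscle and pericyte genes 11 fell (median -1.58 with primed MSC, -1.004 in IUA and -1.92 with control MSC). Of 14 stromal genes 9 fell and 0 rose (median -1.48 with primed MSC, -1.05 in IUA and -1.29 with control MSC), with 1 higher after median-ratio scaling or without Sham replicate 1. Of 6 mesothelial genes 5 fell (median -1.57 with primed MSC, -0.38 in IUA and -0.86 with control MSC), or 3 without Sham replicate 3 and under quantile or GC settings. Krt18, a keratin of simple epithelium, read 3782, 5625 and 6230.1 in Sham and 859.8, 574 and 869.6 after primed MSC, a log2 change of -2.76 ± 0.44 (SE, adjusted p = 0.000271), and its partner Krt8 2535, 3937 and 4545 in Sham against 813, 532 and 822 after treatment. Pax8 and Spint2 fell by 2.29 and 1.86 on the log2 scale. Ltf, lactotransferrin, made by uterine glands and by neutrophils, was the epithelial gene that rose, at 23.6, 76 and 46.7 in Sham and 1167, 239 and 743 after primed MSC. In the list of 15 gland secretion genes, 6 rose (40%), including Lcn2 (3.61) and C3 (1.26), and 4 fell (26.7%), including Muc1 (-1.38). Over all genes these shares were 14.5% and 45%. The median log2 change was -0.53 with primed MSC, -1.63 in IUA and 0.55 with control MSC; the primed median ranged from -1.13 without primed replicate 3 to 0.03 without primed replicate 2, was -0.34 and -0.82 without Sham replicates 1 and 2, and was -0.12 after median-ratio scaling. Without Sham replicate 1, and likewise without primed replicate 3, 4 of these genes were higher. Emcn, an endothelial sialomucin, read 56.5, 49.8 and 24.6 in Sham against 8.31, 5.03 and 7.82 after treatment, and Rgs5, a pericyte marker, 199, 289 and 82.4 in Sham against 37.5, 23.6 and 39.6 after treatment. Esr1, the oestrogen receptor, read 65.2, 77 and 90.6 in Sham against 16.8, 12.8 and 23.6 after treatment, and Hoxa10 12.2, 7.09 and 6.96 in Sham against 0.82, 0.99 and 0.89 after treatment. Hoxa11 fell by 1.94 on the log2 scale, the endothelial genes Egfl7, Esam and Tek by 1.90, 1.92 and 2.13, and the contractile genes Cnn1, Smtn and Synpo2 by 1.87, 1.32 and 1.39, while Vim did not pass (0.31). Of the mesothelial genes, Wt1, Krt19 and Gpm6a fell by 1.82, 1.57 and 1.24 and Msln did not pass (-1.12). Upk1b and Upk3b were called lower (-1.64 and -1.57), and both calls were lost without Sham replicate 3 (adjusted p 0.083 and 0.0728).

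Markers of other blood cells divided by type. Of 14 neutrophil genes listed 11 were tested, of which 7 rose and 0 fell (median 2.04 with primed MSC, 2.00 in IUA and 1.94 with control MSC). The number called lower was 1 without IUA replicate 1 or 2, with the Sham and primed MSC libraries alone and under the replicate block. With no filter on low values 8 of 14 rose, with a median of 1.52. The 14 had summed FPKM of 79.9 to 114 in Sham, 384 to 534 in IUA and 456 to 1537 after primed MSC. Their members Ly6g, Elane and Mpo did not reach the level for testing. Ly6g was listed at 0 in every Sham library and at 0.36, 0.48 and 0.22 after primed MSC; Elane was at most 0.05 and Mpo at most 0.17 in these 6 libraries. Il1r2, a decoy receptor, read 15.1, 8.48 and 13.8 in Sham against 61.7, 51.7 and 46.3 after treatment, and Retnlg, a neutrophil resistin-like protein, did not pass (17.7, 10.4 and 23.2 against 8.14, 4.48 and 3.35). Of 16 T and NK cell genes listed 8 were tested, of which 6 fell and 0 rose (median -1.25 with primed MSC, -0.55 in IUA and -0.96 with control MSC). Cd3e, Cd3d, Cd3g, Cd8a, Trac, Ncr1, Klrb1c and Eomes did not reach the level for testing. With no filter on low values 8 of 16 fell, with a median of -0.62, and quantile normalization gave a median of -0.80 over the 8. Nkg7, a cytotoxic granule protein, read 25.9, 19.9 and 39.5 in Sham against 5.14, 6.59 and 4.13 after treatment, and Lck, Gzmb, Prf1 and Cd2 fell by 1.51, 1.71, 1.30 and 1.20. Cd4 was called lower (-0.65) except under median-ratio, quantile and GC settings (adjusted p 0.0723 to 0.32), and Klrk1 and Gzma did not pass (-0.59 and -0.67). Of 8 mast cell genes tested of 9 listed 5 fell (median -1.48 with primed MSC, -1.11 in IUA and -1.74 with control MSC), or 3 without Sham replicate 1. With the Sham and primed MSC libraries alone 7 of 8 fell, and without IUA replicate 1 all 6 that were tested fell. Kit, the stem cell factor receptor, read 21.4, 37.2 and 37.7 in Sham against 7.11, 3.86 and 7.35 after treatment, and Hdc, histidine decarboxylase, 82.6, 101 and 81.3 in Sham against 60.8, 30.1 and 23.6 after treatment. Cpa3 was called lower (-2.02), which was lost without Sham replicate 1 or primed replicate 1 or 3 (adjusted p 0.055 to 0.105) and after median-ratio scaling. Fcer1a and Mcpt4 fell by 1.08 and 1.42, and Tpsab1, Tpsb2 and Cma1 did not pass (-0.59, -1.83 and -1.54). Tpsb2 was called lower without IUA replicate 1 or 3 or control MSC replicate 3 (adjusted p 0.022 to 0.0441). Cma1 was called lower without IUA replicate 1 (0.048), and Tpsab1 without Sham replicate 3 (0.0103). Of 11 dendritic cell genes listed 8 were tested, without Flt3, Clec9a and Itgae. Of these, 2 rose (25%) and 3 fell (37.5%), beside 14.5% and 45% of all genes (median 0.39 with primed MSC, 0.06 in IUA and 0.14 with control MSC). Median-ratio, quantile and GC settings each gave 5 higher and 3 lower (medians 0.69, 0.81 and 0.66). With no filter on low values 1 was higher and 4 lower (median 0.03). Without Sham replicate 1, 4 were higher, and without Sham replicate 2 or 3 or primed replicate 1 or 3, 1 was; the median was 0.22 without Sham replicate 3. Siglech, of plasmacytoid cells, fell by 2.07 and Zbtb46 by 0.96, and Irf8 rose by 0.64, whereas Batf3, Xcr1 and Itgax did not pass (0.42, 0.41 and 0.36). Of 7 B and plasma cell genes tested of 10 listed (median 0.32 with primed MSC, 0.69 in IUA and 0.44 with control MSC), Sdc1 (1.89) and Cd79b (1.04) rose and Xbp1 fell (-0.85), and Cd79a, Cd22, Mzb1 and Jchain did not pass; the GC correction gave 4 higher (median 0.65). Of 6 red blood cell genes listed 3 were tested (median -2.48 with primed MSC, -1.71 in IUA and -1.64 with control MSC). The 3 haemoglobin genes Hba-a1, Hba-a2 and Hbb-bs, close paralogs, fell by 2.58, 2.48 and 2.37. Of 8 eosinophil genes listed 3 were tested (median -0.59 with primed MSC, 0.30 in IUA and -0.36 with control MSC). Ccr3 and Prg2 were called lower (-0.62 and -0.59), and both calls were lost after median-ratio scaling (adjusted p 0.497 and 0.334) and without single libraries, Sham replicate 1 and 3 for either gene, primed replicate 3 for Ccr3, and primed replicates 1 and 2 for Prg2 (0.0539 to 0.105); Ear2 did not pass (-0.49).

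Set against the other injured groups, primed MSC differed from IUA at 2219 genes (19.1%), 1410 higher (12.2%) and 809 lower (6.97%), and from control MSC at 13 genes (0.112%), 9 higher (0.0776%) and 4 lower (0.0345%), with 1496 at an unadjusted p under 0.05. These comparisons share the primed libraries with the main one. Those higher than with control MSC included Hdac5, Pxn, Snx18, Tgfb3, Jak3, Epb41, Map3k11 and Dctn1, and the 4 lower were Serpina1e, Pinlyp, Cwh43 and S100a10. Hdac5, a class II histone deacetylase, read 7.39, 9.05 and 9.31 in Sham, 6.73, 6.12 and 4.54 in IUA, 10.6, 9.78 and 8.36 with control MSC and 20.6, 22.4 and 21.4 with primed MSC. Pxn, the focal adhesion adaptor paxillin, read 17.7, 19.9 and 19.2 in Sham, 9.7, 9.68 and 4.53 in IUA, 14.4, 15.1 and 13.5 with control MSC and 39.9, 39.9 and 38.2 with primed MSC. Primed libraries were the highest of the 12 for both genes, with differences from control MSC of 1.09 ± 0.15 (SE, adjusted p = 0.0283) and 1.40 ± 0.20 (SE, adjusted p = 0.0342). Map3k11, a mixed lineage kinase, read 4.42, 4 and 2.59 with control MSC and 9.66, 9.6 and 9.83 with primed MSC, and in Sham 8.3, 9.48 and 9.26, where the difference between primed MSC and Sham did not pass (adjusted p = 0.685). S100a10, an annexin partner, read 210, 195 and 188 with control MSC and 123, 121 and 126 with primed MSC. The 13 calls were not refitted under other settings, and several lie at the threshold.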

How the data were processed

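FPKM values for 12 libraries were deposited in 1 table, with 1 value per gene and library rounded to 2 decimals by the authors. Tools listed in the submitters' processing notes are DESeq2, RSEM, StringTie, HISAT2 and fastp, without version or role, and the build listed is mm10. Genes listed at 0 in all 12 libraries numbered 4237, 27 symbols stored as dates were restored from identifiers, and 22253 genes were placed on GRCm38. Low values were searched for steps of whole reads between libraries. Too few low genes were shared (5 to 20 in 4 pairs of libraries) to find any, so whole reads were not recovered, the depth is unknown, and no count test or counting interval was used. No libraries were identical. Summed FPKM per library was 505459.9 to 563751.

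The filter asked for an FPKM of 1 or more in any 3 libraries. Values entered limma 3.58.1 (R 4.3.3) after adding 1 and taking log2, with 1 mean per group over all 12 libraries, a trended prior and Benjamini-Hochberg adjustment over 11604 genes at 0.05. The pseudocount understates changes of low genes. An exact permutation of 3 against 3 cannot go below p = 0.1. A simulation of 11604 genes used the mean of each gene over all 12 libraries and its spread within the groups. Shifted genes were drawn only from those with a mean log2(FPKM + 1) above 3, so lower genes were not covered. Of these, 81 of 100 shifted by a log2 of 1 and 96 of 100 shifted by 2 were found, with 14 false calls. Far fewer genes were shifted than were called in the data.

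Named were, for rises and falls alike, the 12 genes that changed most (non-overlapping libraries, mean FPKM at least 5 in the higher group, no predicted, immunoglobulin or T cell receptor genes) and, from 35 lists, up to 4 members per direction with the smallest p, or all members of lists with 9 or fewer tested. Adgre1, Csf1r, Cd68, Ptprc, Krt8 and Krt18 were always named, and Y-linked genes and Xist left out. Cx3cr1, Fcrl5, Il1b, Nos2, Retnla, Slc16a3 and the genes called between primed and control MSC fall outside this rule, unless a list names them, and were chosen after their values were seen. A few genes that the rule names are not reported here. The members, lists and motifs were chosen with earlier results of these data known. Alternatives were other pseudocounts, filters and scalings, a GC correction, a replicate block, the 6 libraries alone, robust variances and leaving out each library.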

Additional observations from a re-analysis of the deposited data

How the results depend on the processing

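The number of genes called and their direction depended on scaling. Genes higher after primed MSC than in Sham numbered 1684 on the deposited scale, 3240 after median-ratio scaling, 3140 after quantile normalization, 3227 after the GC correction, 3089 after the GC correction with the replicate block and 624 with a log2 change of at least 1. Genes lower numbered 5219, 2913, 3063, 3071, 2968 and 2068 in the same order. Leaving out 1 library gave 1436 to 1843 higher and 4396 to 5449 lower. Correlations of deviations between equal replicate numbers in Sham and primed MSC were -0.158, -0.0634 and 0.0724, and between unequal numbers -0.188 to 0.217. With 3 libraries a group these values cannot show whether equal numbers mark a pair, and the labels do not say. The replicate block gave 1646 higher and 5122 lower, and 4 of the 247 named genes gained a call under it and 0 lost one.

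Of the named genes, 204 passed on the deposited scale, and 16 of those lost their call when some single library was left out. The sign turned for the following log2 changes; except for those of Lamp2, which had been called lower, these belong to genes that had not passed on the deposited scale. Median-ratio scaling gave Ctsk 0.25, Gclc 0.21, Il12b 0.30, Lamp2 0.15, Lilra5 0.062, Plac8 0.34 and Plaur 0.0046. Quantile normalization gave Cd74 -0.29, Cdc20 0.068, Ctsk 0.24, Gclc 0.17, H2-Aa -0.053, H2-Eb1 -0.030, Il12b 0.35, Lilra5 0.17 and Plac8 0.10. The GC correction, with or without the block, gave Ctsk 0.24, Gclc 0.20, Il12b 0.31, Lamp2 0.034, Lilra5 0.079 and Plac8 0.30, and TPM scaling gave H2-Eb1 -0.021. When 1 library was left out, the sign turned for Plac8 (-0.45 to 0.31), Idh2 (-0.036 to 0.23), Il12b (-0.30 to 0.11), Col5a1 (-0.13 to 0.30), H2-Eb1 (-0.062 to 0.11), Isg15 (-0.18 to 0.30) and Ctsk (-0.33 to 0.14), given as the lowest to the highest log2 change. The cause of these turns was not tested. Depth is unknown, so limits from counting cannot be given.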
